A study of Homo sapiens with 3 samples.

Results

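The genes described here encode mitochondrial ribosomal proteins. They were taken by symbol alone, as every gene whose symbol is MRPL or MRPS followed by a number and at most 1 further letter, which gave 78 of the 17576 genes in the table. By their known place in the mammalian mitochondrial ribosome, 26 encode proteins of the small subunit and 51 proteins of the large subunit, among them MRPS18A and MRPS30, which carry an S in their symbol and sit in the large subunit. The remaining gene is MRPS36, whose protein is not a stable part of the ribosome and serves as an adaptor of the 2-oxoglutarate dehydrogenase complex. RefSeq lists it as KGD4.

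RNA was sequenced from LX-2, a human cell line derived from hepatic stellate cells, which deposit collagen in the liver after injury. The 3 libraries were 1 from cells given DMSO, the usual solvent control, 1 from cells given transforming growth factor beta 1 (TGF-b1), the cytokine best known for activating stellate cells, and 1 from cells given TGF-b1 together with 10 μM DP, a natural small molecule known here only by that code. All were treated for 48 h, and the medium held serum in all 3. Each group was 1 library of 1 cell line with no replicate, so every difference below compares libraries, has no replicate check and carries no p-value.

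Mitochondria keep a small genome of their own, which codes for core subunits of the respiratory chain and of ATP synthase, and they translate these messages on their own ribosomes. The rRNA of these ribosomes comes from the mitochondrial genome, while all of their proteins are encoded in the nucleus, made in the cytoplasm and imported. The small subunit reads the messenger RNA, and the large subunit forms the peptide bond and sits at the inner membrane, where the products are inserted. About their promoters, it is known that many nuclear genes for mitochondrial proteins carry sites for the ETS factor GABPA (also called NRF2), for NRF1 and for YY1.

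The promoters below are shown because they belong to the 4 members with the largest and the 2 with the smallest difference between TGF-b1 and DMSO among those with a promoter entry. Each runs 5′ to 3′ on the gene's strand from 250 bases before to 50 bases after the RefSeq start (GRCh38.p14). Capitals mark matches on either strand to CCGGAAG (ETS and GABPA core), GCATGCG (NRF1 core), ATGGCGG (YY1 core) or CACGTG (E-box).
MRPS36, chr5:69217510-69217809, plus strand: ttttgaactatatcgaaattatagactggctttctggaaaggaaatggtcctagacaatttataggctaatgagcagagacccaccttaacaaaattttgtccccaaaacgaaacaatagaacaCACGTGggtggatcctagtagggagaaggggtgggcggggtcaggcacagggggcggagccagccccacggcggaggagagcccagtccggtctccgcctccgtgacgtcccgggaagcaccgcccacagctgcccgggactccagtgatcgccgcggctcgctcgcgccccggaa
MRPS18C, chr4:83455808-83456107, plus strand: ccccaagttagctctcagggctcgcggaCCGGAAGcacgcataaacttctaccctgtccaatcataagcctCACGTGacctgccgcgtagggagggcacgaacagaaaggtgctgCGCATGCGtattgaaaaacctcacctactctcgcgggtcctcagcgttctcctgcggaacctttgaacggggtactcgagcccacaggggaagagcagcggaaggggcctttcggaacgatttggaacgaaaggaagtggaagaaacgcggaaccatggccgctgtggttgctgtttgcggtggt
MRPL32, chr7:42932126-42932425, plus strand: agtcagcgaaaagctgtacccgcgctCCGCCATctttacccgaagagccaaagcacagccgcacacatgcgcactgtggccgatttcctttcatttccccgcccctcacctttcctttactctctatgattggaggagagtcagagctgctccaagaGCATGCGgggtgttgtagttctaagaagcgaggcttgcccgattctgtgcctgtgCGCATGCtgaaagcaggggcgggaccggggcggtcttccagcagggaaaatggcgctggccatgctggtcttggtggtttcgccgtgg
MRPL47, chr3:179604589-179604888, minus strand: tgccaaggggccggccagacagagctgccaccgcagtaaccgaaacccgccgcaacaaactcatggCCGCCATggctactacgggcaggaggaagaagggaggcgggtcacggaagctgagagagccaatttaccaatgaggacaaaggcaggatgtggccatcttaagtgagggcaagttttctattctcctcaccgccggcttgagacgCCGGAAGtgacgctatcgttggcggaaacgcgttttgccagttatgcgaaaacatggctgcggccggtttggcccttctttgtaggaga
MRPS11, chr15:88467458-88467757, plus strand: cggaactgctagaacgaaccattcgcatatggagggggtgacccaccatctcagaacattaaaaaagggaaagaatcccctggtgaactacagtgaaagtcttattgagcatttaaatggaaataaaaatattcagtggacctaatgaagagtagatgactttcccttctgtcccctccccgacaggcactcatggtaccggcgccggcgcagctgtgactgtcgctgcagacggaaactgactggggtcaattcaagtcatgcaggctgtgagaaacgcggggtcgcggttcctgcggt
MRPL49, chr11:65121933-65122232, plus strand: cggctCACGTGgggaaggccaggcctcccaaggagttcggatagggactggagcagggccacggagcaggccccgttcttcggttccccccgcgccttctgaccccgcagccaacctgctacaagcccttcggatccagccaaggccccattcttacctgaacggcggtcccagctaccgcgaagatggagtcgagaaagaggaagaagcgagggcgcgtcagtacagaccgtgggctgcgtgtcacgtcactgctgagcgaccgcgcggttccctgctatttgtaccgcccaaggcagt

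MRPS18C held an ETS core 222 bases before its start, an E-box 179 bases before it, and an NRF1 core that matched on both strands in overlapping letters, 135 and 134 bases before it. MRPL32 held a YY1 core on the minus strand and an NRF1 core on each strand, and MRPL47 held a YY1 core on the minus strand and an ETS core 39 bases before its start. MRPS36 and MRPL49 each held an E-box and no other match, and no match lay in the window of MRPS11. No motif was in all 6 windows.

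A promoter entry existed for 70 of the 78 members. MRPL2, MRPL10, MRPL13, MRPL15, MRPL21, MRPL23, MRPL35 and MRPS28 had none. The ETS core was in 29 of the 70 windows (41.4%), against 20.9% of 9401 expressed genes (those with a mean of 1 FPKM or more) and 10.7% of all 27305 genes with a window. The YY1 core was in 24 (34.3%), against 11.1% and 5.72%. The ETS and YY1 cores were thus more frequent in these windows than in those of expressed genes. The NRF1 core, in 7 (10.0%) against 6.88% and 4.13%, and the E-box, in 7 (10.0%) against 10.5% and 7.44%, were nearer to their level. The letters were then set beside the difference in RNA. Between TGF-b1 and DMSO the median log2 difference was 0.58 for the 29 members with an ETS core and 0.56 for the 41 without, and 0.59 for the 24 with a YY1 core and 0.57 for the 46 without. Between TGF-b1+DP and TGF-b1 the medians were -0.63 and -0.61 for the ETS core, and -0.61 and -0.62 for the YY1 core. Other groupings lay farther apart. Between TGF-b1 and DMSO the median was 0.60 for the 46 members with an ETS or YY1 core and 0.49 for the 24 with neither. Among the 70, only MRPL49, MRPS11 and MRPS27 had negative differences, and all lay in the latter group. With median-of-ratios scaling MRPS11 (0.08) and MRPS27 (0.09) were positive. The median in that comparison, as deposited, was 0.44 for the 7 with both cores and 0.58 for the other 63. It was 0.64 for the 7 with an NRF1 core and 0.56 for the rest. The 7 with an E-box had 0.61 against 0.57, and -0.76 against -0.61 between TGF-b1+DP and TGF-b1. Whether the letters bear on these differences was not tested.

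Levels are in FPKM, fragments per kilobase of transcript at a common number of mapped fragments, which allows genes of different length to be compared. All 78 members were above 0 in every library and had a mean of at least 1 FPKM, as had 11327 genes in all. The members' FPKM ran from 2.45 to 163.94 with a median of 35.5 in the DMSO library, from 3.13 to 283.47 with a median of 49.0 in the TGF-b1 library, and from 0.84 to 146.62 with a median of 33.8 in the TGF-b1+DP library. The median of all 11327 genes moved the other way between the first pair, at 12.7, 10.9 and 12 FPKM. Summed over the members, the libraries held 3397, 5065 and 3226 FPKM. That was 0.766%, 0.926% and 0.751% of all FPKM listed for the library, so the members took a larger share in the TGF-b1 library than in either other one. In a culture measured in bulk, more RNA per cell and a larger number of cells that express a gene cannot be told apart.

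The order of the members among themselves was nearly fixed, as was that of genes in general. Spearman's rho between libraries over the 78 members was 0.96 for DMSO and TGF-b1, 0.96 for TGF-b1 and TGF-b1+DP, and 0.98 for DMSO and TGF-b1+DP. Over all 11327 genes it was 0.94, 0.93 and 0.96 in turn. These values are given as a description of genes that share each library's scaling. MRPL51, a mitochondria-specific protein of the large subunit, was the highest in each library with 163.94, 283.47 and 146.62 FPKM in the DMSO, TGF-b1 and TGF-b1+DP libraries. It overlaps 486 bases of exon of NCAPD2, a condensin subunit on the other strand, so part of its value is uncertain. Next by mean came MRPL12, the L7/L12 protein of the stalk that receives elongation factors, with 121.12, 186.44 and 132.08 FPKM, and MRPL41, of the large subunit, with 140.31, 174.77 and 103.46 FPKM. MRPL41 stood above MRPL12 in the DMSO library and below it in the others. MRPL37, another mitochondria-specific protein of the large subunit, had 101.23, 135.39 and 94.06 FPKM. MRPL18, whose bacterial counterpart binds 5S rRNA, had 86.06, 149.14 and 92.68 FPKM. All of these stood highest in the TGF-b1 library.

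The lowest member was MRPL23, a protein that in bacteria lies beside the exit of the peptide tunnel, with 2.45, 3.13 and 0.84 FPKM. From the steps between the lowest values of short genes these correspond to about 35.5, 47.0 and 12.8 fragments, so this member rests on few reads. MRPL42, with 2.61, 4.34 and 2.93 FPKM, is the member with the longest annotated transcript (15582 bases). MRPS33, of the small subunit, had 5.40, 7.55 and 4.54 FPKM, MRPL50 had 5.07, 9.50 and 5.90 FPKM, and MRPL19 had 6.97, 10.10 and 8.68 FPKM. Over the 78 members, level and transcript length ran in opposite directions (Spearman's rho -0.51), more so than over all genes (-0.31).

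**Figure D1:**
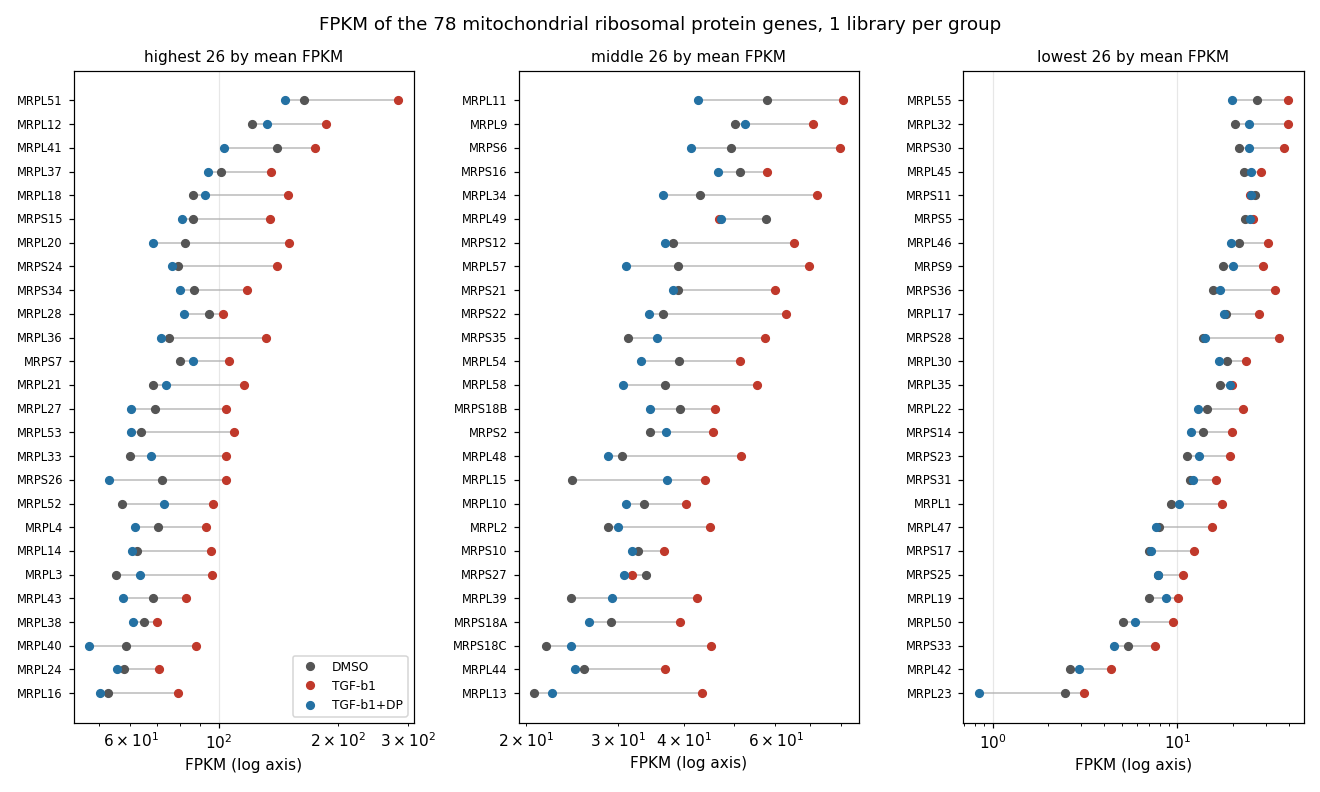
FPKM on a log axis of each of the 78 mitochondrial ribosomal protein genes, in 3 panels of 26 ordered by mean FPKM, with 1 point per library. In 75 of the 78 genes the TGF-b1 point lies to the right of both others, and the DMSO and TGF-b1+DP points lie close together.

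The first comparison addresses the response to the cytokine. In the TGF-b1 library 75 of the 78 members stood above the DMSO library, with a median log2 difference of 0.58, against -0.10 for all 11327 genes. Differences are log2 of the ratio after 1 FPKM was added to both values. 38 members were higher by at least 1.5-fold, against a background of 12.3% of all genes, and none was lower by as much, against 20.9%. The count of 38 depended on the processing. With libraries scaled to the same total FPKM it was 6 of 78 (7.69%) against 4.11% of all genes, and with differences corrected for length and GC content 5 (6.41%) against 8.06%, so it was then not above the background. At 2-fold 4 members were higher (background 2.31%) and none lower (background 6.73%). The members also lay closer together than genes in general, with a standard deviation across genes of 0.28 against 0.61. Among lists described below, import had 0.32, complex I 0.31, complexes III, IV and V 0.22, and cytoplasmic ribosomal proteins 0.25. Wider were translation factors (0.34), ribosomal proteins without an MRP symbol (0.43), assembly factors (0.45), biogenesis regulators (0.60) and mitochondrial transcription and DNA upkeep (0.65). Members had shorter transcripts than genes in general (median 1430.5 against 3273.5 bases), and the standard deviation was not compared among genes of like length.

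The largest difference was that of MRPS28, a small subunit protein that corresponds to bacterial S1. It had 13.82 FPKM in the DMSO library, 35.42 in the TGF-b1 library and 14.18 in the TGF-b1+DP library, a log2 difference of 1.297 for TGF-b1 against DMSO. MRPS36 had 15.60, 33.79 and 17.00 FPKM (1.07). Both have a stretch of sequence nearly identical to a transcript that is not in the table, so their values are uncertain. MRPL13, a large subunit protein with a bacterial counterpart, had 20.69, 43.47 and 22.37 FPKM (1.04), and MRPS18C had 21.85, 45.13 and 24.38 FPKM (1.01). MRPS18C shares 1956 bases of exon with ABRAXAS1 on the other strand. MRPL32, whose yeast counterpart is cut by an inner membrane protease before it joins the ribosome, followed with 20.52, 39.71 and 24.28 FPKM (0.92). MRPL47, whose promoter is shown above, had 7.93, 15.35 and 7.66 FPKM (0.87). For each of these 6 members the TGF-b1 library stood alone, with the DMSO and TGF-b1+DP libraries next to each other.

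At the other end, 3 members were lower in the TGF-b1 library than in the DMSO library. MRPL49, a mitochondria-specific protein of the large subunit, had 57.67, 46.72 and 47.25 FPKM in the DMSO, TGF-b1 and TGF-b1+DP libraries, a log2 difference of -0.30. MRPS11, on the platform of the small subunit, had 26.40, 24.62 and 24.92 FPKM (-0.10), and MRPS27, a pentatricopeptide repeat protein of the small subunit, had 33.96, 31.94 and 30.75 FPKM (-0.09). As deposited, none of the 3 was lower by 1.5-fold, but MRPL49 came to -0.59, past that fold, with libraries scaled to the same total. MRPS11 and MRPS27 turned positive with median-of-ratios scaling (0.08 and 0.09), and MRPS11 came to 0.18 after the correction for length and GC content described below. The smallest positive differences were those of MRPL38, with 64.85, 70.03 and 60.76 FPKM (0.11), and MRPL28, with 94.47, 102.36 and 82.06 FPKM (0.11). Both turned negative (-0.19 and -0.18) with the same total, under which 13 of 78 members and 8366 of 11327 genes were below 0.

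The second comparison addresses the cells given DP beside the cytokine. It shares the TGF-b1 library with the first, so whatever was particular to that library enters both with opposite sign, and the values of each are given side by side with no count of how far they mirror each other. In the TGF-b1+DP library 76 of the 78 members stood below the TGF-b1 library. The median log2 difference was -0.61, against -0.004 for all genes. 45 members were lower by at least 1.5-fold (background 16.8%) and none was higher by as much (background 16.9%). With the same total 12 (15.4%) were lower, against 6.05% of all genes, and after the length and GC correction 6 (7.69%), against 8.70%, again not above the background. At 2-fold 4 members were lower (background 4.26%) and none higher (background 6.19%).

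MRPS28 had the largest difference, at -1.26. MRPL23 followed at -1.17, on the few fragments given above. MRPL57, a small mitochondria-specific protein of the large subunit, had 39.08, 69.43 and 30.99 FPKM in the DMSO, TGF-b1 and TGF-b1+DP libraries, which gives 0.81 for TGF-b1 relative to DMSO and -1.14 for TGF-b1+DP relative to TGF-b1. MRPL20, which in bacteria is needed early in large subunit assembly, had 82.48, 150.62 and 68.29 FPKM (0.86 and -1.13). MRPL55, of the large subunit, had 27.06, 39.59 and 19.68 FPKM (0.53 and -0.97). In MRPL57, MRPL20 and MRPL55 the TGF-b1+DP library was the lowest of the 3. The members with the least difference were MRPS11 (0.02), MRPL49 (0.02), MRPL35 (-0.03), MRPS27 (-0.05) and MRPS5 (-0.07). MRPL35 had 16.94, 19.81 and 19.35 FPKM, and MRPS5, whose bacterial counterpart lies at the entry of the messenger RNA, had 23.20, 25.81 and 24.62 FPKM, so in both genes the 3 libraries lay close together.

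**Figure D2:**
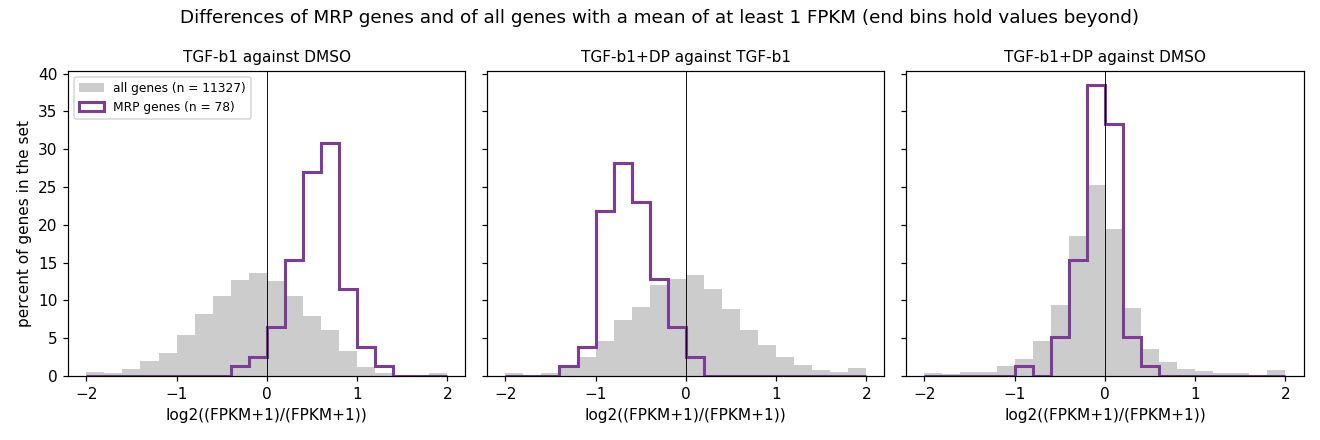
Percent of genes by log2 difference for the 3 comparisons, with all 11327 genes that had a mean of 1 FPKM or more in grey and the 78 mitochondrial ribosomal protein genes as a purple line. The members' median lies at 0.58 in the first panel, at -0.61 in the second and at -0.06 in the third.

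The third comparison sets the library with both agents beside the DMSO library. Here the members had a median log2 difference of -0.06, against -0.10 for all genes, and its sign depended on the scaling (0.10 with median-of-ratios scaling). Of the 78 members, 77 (98.7%) lay within 1.5-fold, against 84.4% of genes. 1 member, MRPL23 (-0.91), was lower by 1.5-fold (background 10.2%) and none was higher (background 5.45%). At 2-fold none was higher (background 2.45%) and none lower (background 2.88%). With the TGF-b1 library highest, 31 members (39.7%, against 13.3% of all genes) had their lowest value in the DMSO library and 44 (56.4%, against 22.5%) in the TGF-b1+DP library. These shares also carry how often the TGF-b1 library was highest, which was for 75 members and 4054 genes. Of those 4054 genes, 1508 were lowest in the DMSO library and 2546 in the TGF-b1+DP library. The members thus split between the 2 libraries much as genes in general did.

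The largest positive difference was that of MRPL15, a large subunit protein with a bacterial counterpart. It had 24.46, 44.02 and 37.16 FPKM in the DMSO, TGF-b1 and TGF-b1+DP libraries, which is 0.82 for TGF-b1 relative to DMSO, and for TGF-b1+DP -0.24 relative to TGF-b1 and 0.58 relative to DMSO. MRPL52 had 57.28, 96.67 and 72.98 FPKM (0.34 for TGF-b1+DP against DMSO). In both genes the TGF-b1+DP library lay between the others. MRPL19 (0.28), MRPL39 (0.25, from 24.31, 42.51 and 29.15 FPKM) and MRPL32 (0.23) came next. Below the DMSO library by the most after MRPL23 were MRPL55 (-0.44), MRPS26 with 72.18, 104.10 and 52.95 FPKM (-0.44), MRPL41 (-0.44) and MRPL11 with 57.90, 80.87 and 42.59 FPKM (-0.43). In these 4 genes the TGF-b1 library was the highest and the TGF-b1+DP library the lowest.

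By subunit, the 26 small subunit genes and the 51 large subunit genes had similar differences. For TGF-b1 against DMSO the medians were 0.50 and 0.58, with 12 of 26 and 25 of 51 higher by 1.5-fold. For TGF-b1+DP against TGF-b1 they were -0.59 and -0.61, with 13 and 31 lower by 1.5-fold. The summed FPKM of the small subunit divided by that of the large subunit was 0.391, 0.382 and 0.395 in the DMSO, TGF-b1 and TGF-b1+DP libraries, so the ratio of the subunits' RNA was nearly the same in all 3. The 46 members with a bacterial homologue had medians of 0.61 and -0.64 in these comparisons, and the 31 proteins added in the mitochondrial lineage 0.50 and -0.56.

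The 3 paralogs of bacterial S18, which take different places in the ribosome, were not alike. MRPS18C, in the S18 place of the small subunit, gave 1.01 for TGF-b1 relative to DMSO and -0.86 for TGF-b1+DP relative to TGF-b1. MRPS18A, in the large subunit, had 29.05, 39.39 and 26.40 FPKM (0.43 and -0.56), and MRPS18B, in the small subunit, had 39.38, 45.95 and 34.57 FPKM (0.22 and -0.40). Among the 3 the order by difference was the reverse of the order by level in the DMSO library. In the stalk, MRPL12 gave 0.62 and -0.49, MRPL11 at the stalk base gave 0.48 and -0.91, and MRPL10, which anchors MRPL12, had 33.61, 40.36 and 31.08 FPKM (0.26 and -0.37). All 3 stalk genes were highest in the TGF-b1 library.

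The mitochondrial ribosome also has proteins whose genes carry no MRP symbol. CHCHD1, of the small subunit, had 46.39, 88.35 and 42.73 FPKM in the DMSO, TGF-b1 and TGF-b1+DP libraries (0.91 for TGF-b1 against DMSO). GADD45GIP1, of the large subunit at the tunnel exit, had 38.11, 64.15 and 35.82 FPKM (0.74), and AURKAIP1, of the small subunit, had 139.11, 199.03 and 127.67 FPKM (0.51). These 3 followed the shape of the members. DAP3, a GTP-binding small subunit protein, had 57.13, 68.22 and 64.18 FPKM (0.25), and PTCD3, another pentatricopeptide repeat protein of the small subunit, had 9.18, 7.93 and 8.17 FPKM (-0.19).

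As deposited, factors that act on the ribosome had smaller median differences than its structural proteins, and with libraries scaled to the same total their medians changed sign. After the length and GC correction described below, the medians of translation and of assembly factors for TGF-b1+DP against TGF-b1 were positive. That is opposite in sign to the members' corrected median. For 16 factors of mitochondrial translation the median was 0.11 for TGF-b1 relative to DMSO and -0.23 for TGF-b1+DP relative to TGF-b1, with 1 gene higher by 1.5-fold in the former and 2 lower in the latter. With the same total these medians were -0.16 and 0.10. TUFM, the elongation factor Tu, had 189.40, 221.95 and 184.18 FPKM (0.23 and -0.27). The exception was SLIRP, which binds and stabilises mitochondrial messenger RNA, with 60.28, 147.88 and 70.62 FPKM (1.28 and -1.06), while LRPPRC, its partner in that complex, had 19.00, 16.58 and 22.17 FPKM (-0.19 and 0.40). For 24 factors of ribosome assembly and rRNA modification the medians were 0.14 and -0.11 (-0.15 and 0.21 with the same total), with 3 higher and 2 lower by 1.5-fold for TGF-b1 against DMSO. MALSU1, which keeps the unfinished large subunit from joining, had 10.86, 22.78 and 10.60 FPKM (1.00 and -1.04), and DHX30, an RNA helicase of mitochondrial RNA granules, had 31.89, 17.70 and 27.30 FPKM (-0.81 and 0.60). For 11 genes of mitochondrial transcription and DNA upkeep the medians were 0.27 and -0.12 (the latter 0.20 with the same total), with 3 higher and 2 lower, from TFB2M, a transcription factor of the mitochondrial genome, with 5.18, 10.35 and 6.91 FPKM (0.88), to POLG, the DNA polymerase, with 23.17, 11.07 and 22.87 FPKM (-1.002).

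Among 12 regulators of mitochondrial biogenesis, 10 had a mean of at least 1 FPKM, with medians of -0.29 and 0.04 as deposited. For TGF-b1 against DMSO 1 was higher and 4 were lower by 1.5-fold. After the length and GC correction described below, both medians changed sign. The coactivators PPARGC1A and PPARGC1B were at or below 0.10 FPKM in every library. GABPA, whose core letters were frequent in the members' promoters, had 5.62, 6.31 and 5.44 FPKM (0.14 for TGF-b1 against DMSO), YY1 had 13.38, 16.85 and 11.51 FPKM (0.31), and NRF1 had 7.70, 5.26 and 5.91 FPKM (-0.47). As deposited, none of the 3 reached 1.5-fold for TGF-b1 against DMSO. After the length and GC correction YY1 came to 0.97 in that comparison and -1.13 between TGF-b1+DP and TGF-b1, and with the same total NRF1 came to -0.73 for TGF-b1 against DMSO, all past 1.5-fold. SP1, a general activator that binds GC boxes, had 19.94, 11.54 and 16.92 FPKM (-0.74 and 0.52), and -0.19 for TGF-b1 against DMSO after the correction. MYC had 17.10, 36.48 and 31.78 FPKM (1.05 and -0.19), so in contrast to the members it was high in both libraries with TGF-b1. The related coactivator PPRC1, with 11.98, 7.29 and 15.58 FPKM (-0.65 and 1.00), stood lowest in the TGF-b1 library. After the correction its differences were 0.28 and 0.38, so the former changed sign and the latter was within 1.5-fold.

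Lists for other mitochondrial proteins and for the cytoplasmic ribosome had differences of similar size or larger. The 24 genes of mitochondrial import had medians of 0.59 for TGF-b1 relative to DMSO and -0.57 for TGF-b1+DP relative to TGF-b1. The 37 nuclear subunits of complex I had 0.59 and -0.89, the 35 of complexes III, IV and V had 0.73 and -0.96, and 81 genes with symbols of cytoplasmic ribosomal proteins had 0.86 and -0.90. Higher by 1.5-fold in the TGF-b1 library were 12, 19, 23 and 69 genes of these lists in turn, and lower in the TGF-b1+DP library 12, 31, 29 and 71, with none past 1.5-fold in the other direction in either comparison. Against DMSO, the TGF-b1+DP library gave medians of 0.03 for import, -0.20 for complex I, -0.25 for complexes III, IV and V, and -0.04 for the cytoplasmic ribosomal proteins, beside -0.06 for the members. All 4 lists shared the members' direction in the comparisons that involve the TGF-b1 library, under each scaling.

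**Figure D3:**
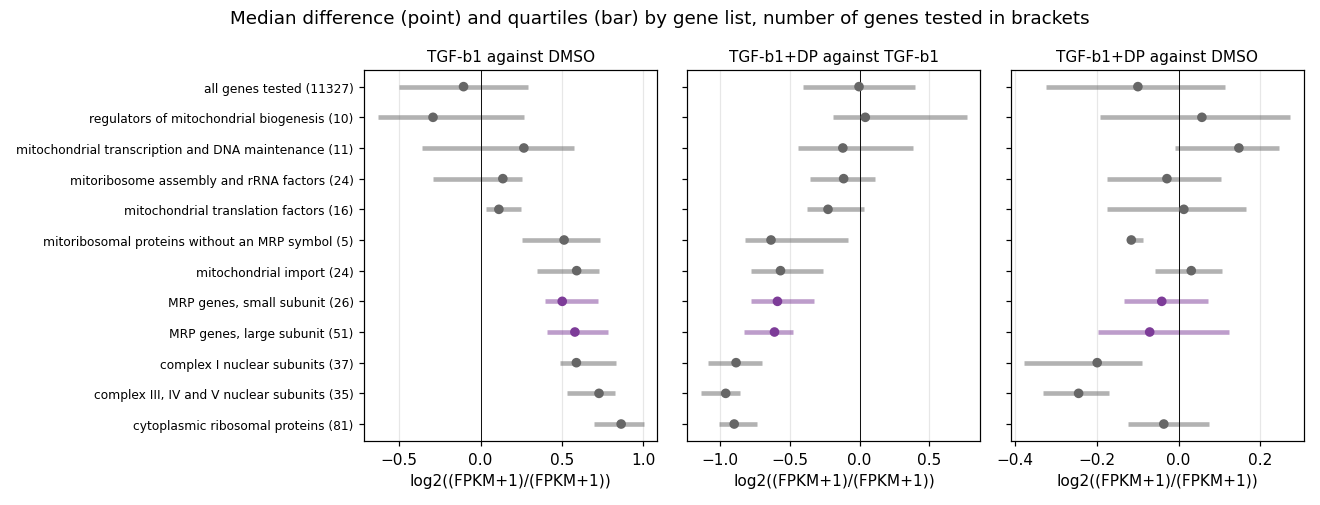
Median log2 difference (point) and quartiles (bar) of each gene list in the 3 comparisons, with the number of genes tested in brackets. Both subunits lie near 0.5 in the first panel and near -0.6 in the second, with the factors of translation and assembly closer to 0 and the cytoplasmic ribosomal proteins farther from it.

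Transcript length moved with the difference over the whole table. Members had a median transcript of 1430.5 bases, against 3273.5 for all genes, and with genes divided by length into 10 bins of near equal size, 36 of the 78 lay in the shortest bin. In that bin (177 to 1363 bases, 1130 genes) the median of all genes was 0.49 for TGF-b1 relative to DMSO and -0.69 for TGF-b1+DP relative to TGF-b1, and that of its 36 members was 0.70 and -0.74. In the next bin (1364 to 1866 bases) the medians were 0.24 and -0.40 for all genes and 0.54 and -0.58 for the 22 members. The longest bin had -0.50 and 0.52 over all genes. The members thus stood somewhat beyond genes of their own length in the same direction. In the third bin the medians for TGF-b1 against DMSO were 0.06 for all genes and 0.38 for its 8 members.

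When the median of genes of like length and GC content was subtracted from each difference, the members' median was 0.18 for TGF-b1 against DMSO, with 61 of 78 above 0, 5 higher by 1.5-fold (6.41%, against 8.06% of all genes) and none lower (against 7.72%). It was -0.10 for TGF-b1+DP against TGF-b1, with 49 below 0, 28 above 0 and 6 lower by 1.5-fold (7.69%, against 8.70% of all genes). The members' median thus kept its direction in both comparisons, but without replicates there was no spread by which to judge its size. The share past 1.5-fold after this correction was below that of all genes. With lengths from the longest transcript of any kind it was 11.5% in both, against 9.32% and 9.78%. The 5 with the largest corrected values were MRPS23 (1.14, from 11.28, 19.25 and 13.05 FPKM), MRPL57 (0.82), MRPL42 (0.76), MRPS25 (0.71) and MRPL50 (0.60). Of these, MRPS23 and MRPS25 are named outside the rule and were chosen after these values were seen. The 5 were assigned transcripts of 5621, 2246, 15582, 4586 and 3332 bases in turn, against a member median of 1430.5. They were thus set beside longer genes than most members were, and their corrected values depend on these lengths. MRPS28 came to 0.48. Corrected in the same way, the medians of the 2 comparisons were 0.27 and -0.09 for import, 0.13 and -0.29 for complex I, 0.13 and -0.29 for complexes III, IV and V, and 0.29 and -0.18 for the cytoplasmic ribosomal proteins. For TGF-b1 against DMSO SLIRP came to 0.47, POLG to -0.36 and DHX30 to -0.06. What in the cells or in library making goes with transcript length was not tested.

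**Figure D4:**
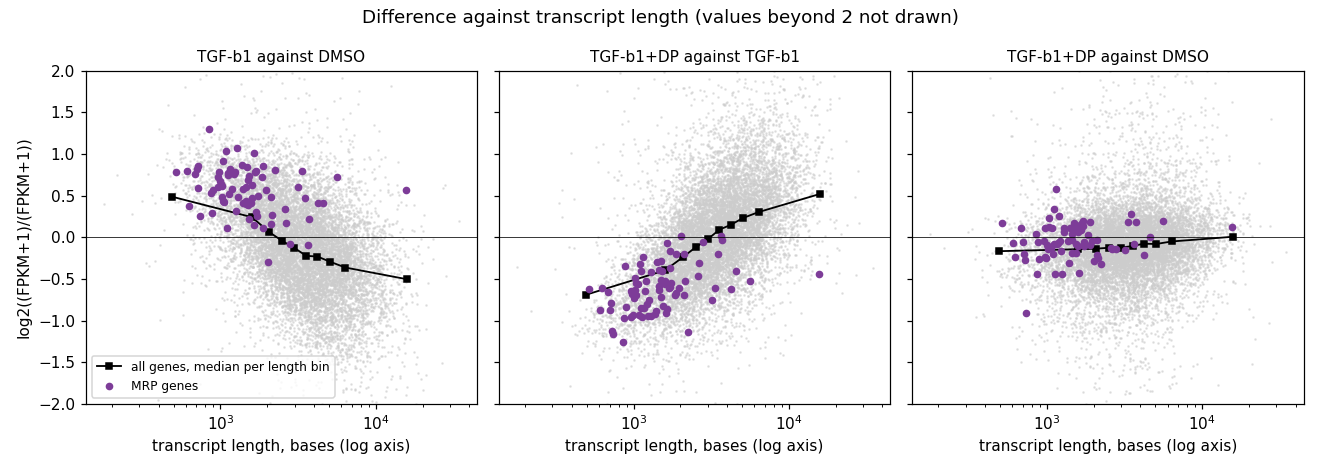
Log2 difference against transcript length in bases (log axis) for the 3 comparisons, with all genes in grey, their median in each of 10 bins of length as black squares, and the 78 mitochondrial ribosomal protein genes in purple. The all-gene median falls from 0.49 in the shortest bin to -0.50 in the longest in the first panel and climbs from -0.69 to 0.52 in the second, and most members lie at the short end.

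The scale of the libraries mattered as well. Summed FPKM was 443566, 546754 and 429399 in the DMSO, TGF-b1 and TGF-b1+DP libraries. Scaled to the same total, the members' median was 0.29 for TGF-b1 relative to DMSO and -0.28 for TGF-b1+DP relative to TGF-b1, while that of all genes moved to -0.36 and 0.29, and the TGF-b1 library was the highest for 60 members in place of 75. Scaled by the median of ratios, the members' medians were 0.76 and -0.64, those of all genes 0.05 and -0.02, and the TGF-b1 library was the highest for 77. The direction of both medians was the same under each scaling, and the distance between the members and all genes was 0.65 to 0.71 for TGF-b1 against DMSO.

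**Figure D5:**
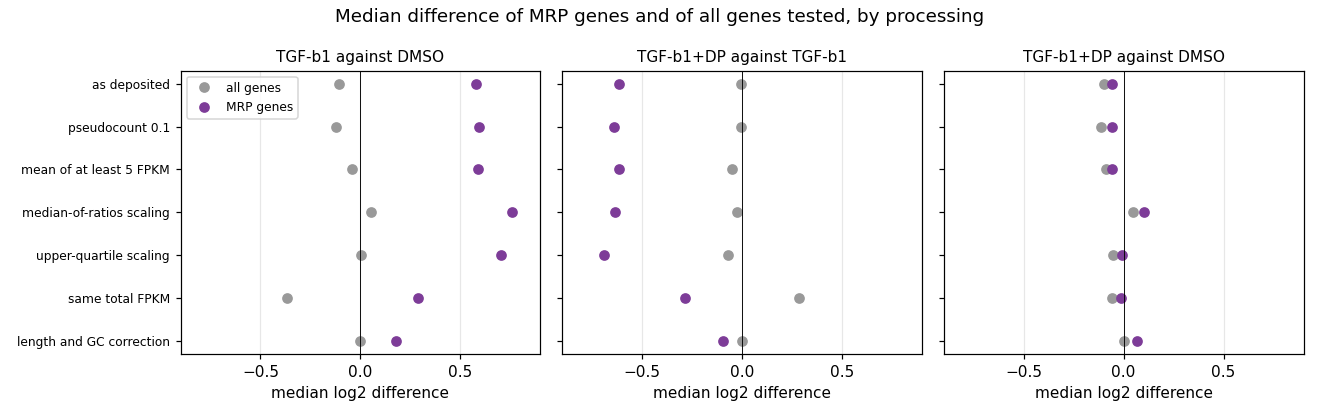
Median log2 difference of the 78 mitochondrial ribosomal protein genes and of all genes tested, for the values as deposited and for each other processing. The members' median runs from 0.18 to 0.76 in the first panel and from -0.69 to -0.10 in the second, and lies within 0.10 of 0 for TGF-b1+DP against DMSO.

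Many of these genes share a start region with a neighbour. Of the 70 members with a promoter entry, 18 (25.7%) had another measured gene starting within 1000 bases on the other strand and pointing away, against 11.7% of 13981 genes. In 16 of these pairs the partner was not a member. The members of those pairs had a median of 0.59 for TGF-b1 against DMSO and their partners 0.04, and the member was above its partner in 12 of 16. For TGF-b1+DP against TGF-b1 the medians were -0.65 and -0.21. The pairs named next were chosen after their values were seen. MRPL32 and PSMA2, a proteasome subunit that starts 202 bases away, were alike, with 73.93, 141.81 and 77.86 FPKM for PSMA2 (0.93). MRPL49 and FAU, a gene for a cytoplasmic ribosomal protein that starts 49 bases away, went opposite ways, with 608.31, 1189.85 and 577.55 FPKM for FAU (0.97), and they overlap by 282 bases of exon. MRPL51 and NCAPD2 also went opposite ways, with 139.34, 50.61 and 60.08 FPKM for NCAPD2 (-1.44). MRPL46 and MRPS11, which start 320 bases apart, are both members. MRPL46 had 21.62, 30.76 and 19.50 FPKM (0.49), whereas MRPS11 gave -0.10.

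Reads can be split between overlapping or near-identical genes, and 26 members were of that kind, among them MRPL11, MRPL19, MRPL28, MRPL37, MRPL47, MRPL49, MRPL51, MRPS5, MRPS18A, MRPS18C, MRPS25 and MRPS27. Members with a near-identical transcript outside the table numbered 14, among them MRPL12, MRPL38, MRPS11, MRPS28 and MRPS36. The 52 that share no reads with a measured gene had medians of 0.59 and -0.62 in these comparisons, against 0.48 and -0.59 for the 26. The depth of the libraries, estimated from the steps between low values, was about 19690000, 20410000 and 20700000 fragments, with 65.35% to 72.55% of 99 to 102 values per library within 0.2 of a whole step. The step was itself taken from low values, so this share is no separate check on the depth. Of 10 marker genes of stellate cells and fibroblasts 9 were at 1 FPKM or more in some library, and LUM was at 0. Their summed levels of 2863, 5450 and 5336 FPKM were mostly VIM and TIMP1, which like COL5A1 were highest in the TGF-b1+DP library. COL1A1 (295.27, 604.11 and 349.38 FPKM), SPARC (269.50, 880.37 and 369.91 FPKM), COL1A2 and PDGFRB were highest in the TGF-b1 library. COL3A1 (34.89, 33.12 and 10.81 FPKM) and THY1 (2.42, 1.58 and 0.42 FPKM) were highest in the DMSO library. All 5 hepatocyte markers in the table were below 1 FPKM. Of 5 markers of cholangiocytes and epithelium 3 were below 1 FPKM, and the sums of 16.18, 21.37 and 10.64 FPKM, from SOX9 and KRT7, were highest in the TGF-b1 library. The 4 endothelial markers summed to 1.17, 1.16 and 3.60 FPKM. Of 4 leukocyte markers PTPRC and MARCO were below 1 FPKM in each library, CD68 had 48.53, 21.29 and 54.80 FPKM, and CD14 had 4.77, 2.94 and 0.96 FPKM. The part of these markers in the members' differences was not tested.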

How the data were processed

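For strand, read length and depth, nothing is given in the sources used here. The authors deposited 1 table of FPKM values, 1 column per library, per the file headers. BWA, Bowtie, Cufflinks and Cuffdiff are listed with build GRCh38.p13, per the submitters' processing notes, with no role or version. Because FPKM is scaled within a library, a few abundant transcripts can move all other values. Of 17596 lines, 20 held annotation text and were left out, which left 17576 genes. Differences were computed as log2((FPKM+1)/(FPKM+1)), a pseudocount that understates differences of low genes, for genes whose mean over the 3 libraries was 1 FPKM or more. Higher and lower were counted at 1.5-fold and 2-fold on this scale and set beside the share of all genes past the same fold. With 1 library per group no test was made.

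Transcript length and GC content came from GENCODE release 29 by gene identifier, which matched 17336 genes and all 78 members, from the longest transcript linked to a RefSeq mRNA. The correction subtracted the median difference in 20 bins of length with 5 bins of GC content each. Genes were taken to share reads where exons overlapped by at least 100 bases whatever the strand, or where a stretch of 200 bases or more had 97% identity. Depth was estimated from the spacing of low FPKM values times length. Promoter windows came from RefSeq, with the first listed start of each gene. The members, the gene lists and the motifs were chosen with earlier results of these data known. Named members were the 5 largest and 5 smallest differences of each comparison, the 5 highest and 5 lowest means, the S18 paralogs and the stalk genes. For other lists the rule took the largest and smallest gene of each comparison, of which a part is printed, and all mitochondrial ribosomal proteins without an MRP symbol. MRPL47, MRPL46, MRPS23, MRPS25, GABPA, TUFM, PPARGC1A, PPARGC1B and the partner genes are named outside it. Other settings were a pseudocount of 0.1 FPKM, no filter, a mean of at least 5 FPKM, scaling to the same total, by the median of ratios or by the upper quartile, the correction above, and members that share no reads. The calculation was tested on simulated data. Tools were bedtools 2.31.1, minimap2 2.31 and Python 3.11.15 with pandas 2.3.3, numpy 2.4.6, matplotlib 3.10.9 and scipy 1.17.1.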

Additional observations from a re-analysis of the deposited data

How the results depend on the processing

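For TGF-b1 against DMSO the members' median log2 difference was positive in every setting run. It was 0.29 with libraries scaled to the same total FPKM, 0.76 with median-of-ratios scaling, 0.70 with upper-quartile scaling, 0.18 after correction for length and GC content, and 0.24 after the same correction with the longest transcript of any kind, a setting chosen after seeing the data. The members higher by 1.5-fold numbered 6 with the same total, 5 after the correction and 9 with the longest transcript, which is 7.69%, 6.41% and 11.5% against 4.11%, 8.06% and 9.32% of all genes. The same total put 1 member (1.28%) lower by 1.5-fold, against 34.9% of all genes. Higher by 2-fold were 1 with the same total, 10 with median-of-ratios scaling, 1 after the correction and 1 with the longest transcript.

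For TGF-b1+DP against TGF-b1 the median was negative in every setting run, at -0.28 with the same total, -0.10 after the correction and -0.11 with the longest transcript. The members lower by 1.5-fold numbered 12, 6 and 9 in these settings, which is 15.4%, 7.69% and 11.5% against 6.05%, 8.70% and 9.78% of all genes. Lower by 2-fold were 0, 1 (1.28%) and 0 members in turn, against 1.1%, 2.09% and 2.42% of all genes. With upper-quartile scaling 11 (14.1%) were lower by 2-fold, against 5.69%. For TGF-b1+DP against DMSO the median changed sign, to 0.10 with median-of-ratios scaling, 0.067 after the correction and 0.077 with the longest transcript. In that comparison 1 member was higher by 1.5-fold with a pseudocount of 0.1 FPKM, the same total, median-of-ratios scaling, upper-quartile scaling and both corrections. That is 1.28%, against 6.02% to 7.74% of all genes in these settings. With a pseudocount of 0.1 FPKM 1 member was lower by 2-fold, and with a mean of at least 5 FPKM 0 were lower by 1.5-fold, since MRPL23 was then left out.

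Under the correction 28 of the 78 members were above 0 for TGF-b1+DP against TGF-b1, against 2 as deposited, so many single genes changed sign. Among the named members past 1.5-fold as deposited, MRPL18 reversed for TGF-b1+DP against TGF-b1, at 0.19 after the correction and 0.047 with the longest transcript, and so did MRPL32, at 0.15 after the correction. MRPL39 reversed for TGF-b1 against DMSO, at -0.016 with the longest transcript. The cause was not tested beyond the construction of each setting. Of the summary values under other settings, 101 stayed near the main value and 34 moved. Of the other values compared, 465 stayed near it, 317 moved and 4 reversed, the last being those of MRPL18, MRPL32 and MRPL39 given above. Sign changes of differences within 1.5-fold as deposited are not among the 4. For MRPL12, TGF-b1+DP against TGF-b1 went from -0.49 as deposited to 0.21 after the correction. No paired analysis was possible because each group held 1 library. The absence of replicates is the chief limit: chance in the TGF-b1 library enters both comparisons that use it, and depth bears mainly on MRPL23.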
